A study of Mus musculus with 6 samples.

Results

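The T cell receptor complex was followed here through 10 genes, chosen by name and matched by symbol among the 54146 gene rows of each count table. They were the receptor constant region genes Trac, Trbc1, Trbc2 and Trdc, the CD3 genes Cd3e, Cd3d and Cd3g, the kinase gene Lck, and the co-receptor genes Cd4 and Cd8a. The libraries came from tumors of 4T1, a mouse mammary carcinoma cell line, grown at the orthotopic site, the mammary fat pad, in nude mice for 3 weeks. There were 3 libraries from wild-type cells and 3 from cells with a knockout of Mki67, which encodes the nuclear protein Ki-67 of dividing cells. Both groups shared the same kind of host, in which the host's own cells carry an intact Mki67. The labels give neither the number of knockout clones nor the age of the mice, and do not say that the libraries of a group came from separate animals, so the adjusted p-values below measure only the spread between these libraries. The genes were proposed with their levels in these libraries known, so their own difference between the groups is a description and carries no test.

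Each T cell receptor is a pair of chains, alpha with beta or gamma with delta. In a developing T cell, variable (V), joining (J) and, for beta and delta, diversity (D) segments are joined in the DNA into 1 exon, which is then spliced to a constant region (C). The receptor reaches the surface only together with the CD3 chains, which carry its signal into the cell. Lck phosphorylates those chains, and CD4 or CD8 brings Lck to the receptor when it binds an MHC molecule. Conventional T cells mature in the thymus, which nude mice lack, and so such mice hold few of them. Constant regions can also be transcribed before any V segment has been joined to them.

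The short stretches that follow are shown because the results turn on them. The first exons of Trbc1 and Trbc2, the alternative constant regions of the beta chain, are 375 bases long in the GENCODE M21 annotation of GRCm38 and differ at 1 base, so they are 99.7% identical. That base, position 260 counted from the exon's 5′ end, stands in capitals in the windows at chr6:41538437-41538517 and chr6:41546949-41547029, both on the plus strand. Read pairs of 50 bases an end whose ends both fall in shared stretches map to both genes and were not counted for either. Of all windows of 50 bases in the transcripts, 41.1% of those in Trbc1 (737 bases) and 44.0% of those in Trbc2 (692 bases) were found in the other gene, so both are undercounted. These are shares of single windows, and the share of pairs left out was not measured. Trbj1-6, a beta joining segment at chr6:41535554-41535606, and the main exon of Trdv4, a delta variable segment, at chr14:54075217-54075515, also on the plus strand, were segments other than constant regions with counts high in the knockout libraries.
Trbc1: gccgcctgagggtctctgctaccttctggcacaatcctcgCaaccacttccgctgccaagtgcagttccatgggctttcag
Trbc2: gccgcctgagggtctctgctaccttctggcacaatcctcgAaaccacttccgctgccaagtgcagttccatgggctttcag
Trbj1-6: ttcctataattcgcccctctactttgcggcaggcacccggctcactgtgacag
Trdv4: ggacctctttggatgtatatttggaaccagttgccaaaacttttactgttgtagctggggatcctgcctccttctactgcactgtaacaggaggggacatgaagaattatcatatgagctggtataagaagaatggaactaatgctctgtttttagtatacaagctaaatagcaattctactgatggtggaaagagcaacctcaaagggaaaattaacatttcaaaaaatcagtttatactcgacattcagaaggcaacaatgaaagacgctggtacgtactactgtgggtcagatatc

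The depth was 37065778 to 38399826 read pairs counted on genes per wild-type library and 22081970 to 30772729 per knockout library. Levels are given as CPM, read counts relative to the library's total, scaled with TMM factors, and a count of 0 allows up to 3 counts, which is 0.0793 to 0.129 CPM depending on the library. Mki67 itself, the targeted gene, stood at 359 ± 34.9 CPM (SD, n = 3) in the wild-type and 118 ± 19.9 CPM in the knockout libraries, with no overlap. Libraries 2 and 3 of the knockout stood apart in their unmapped pairs, 54.6% and 52.7%, against 30.8% to 33.9% in the other 4. Pairs outside annotated exons made up 14.2%, 9.91% and 18.9% of the uniquely mapped pairs in knockout libraries 1, 2 and 3, against 9.24% to 11.1% in the wild-type libraries. The counts do not separate the strands, so antisense reads are included.

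The constant region genes Trac, Trbc1 and Trdc were higher in every knockout library than in any wild-type library, while Trbc2 overlapped between the groups. The CD3 genes overlapped as well, and Lck and Cd4 were lower in the knockout tumors. Summed over Trac, Trbc1, Trbc2 and Trdc, the counts were 110, 64 and 157 in the wild-type and 567, 502 and 396 in the knockout libraries. That is 2.97 ± 1.25 CPM (SD, n = 3) against 18.4 ± 1.39 CPM. The knockout libraries held 6.22 times the wild-type level (95% exact counting interval 5.51 to 7.03), and the lowest of them lay far above the highest wild-type library. Summed over Cd3e, Cd3d and Cd3g, the counts were 42, 68 and 39 against 51, 15 and 59. In CPM this was 1.33 ± 0.408 against 1.59 ± 0.973, and the knockout libraries held both the lowest and the highest value of the 6. Summed over Lck, Cd4 and Cd8a, the counts were 211, 205 and 215 against 101, 75 and 80, or 5.66 ± 0.209 against 3.22 ± 0.244 CPM, with no overlap. The intervals cover counting error only. In tumor tissue, fewer cells of a type and less RNA per cell cannot be told apart.

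**Figure D1:**
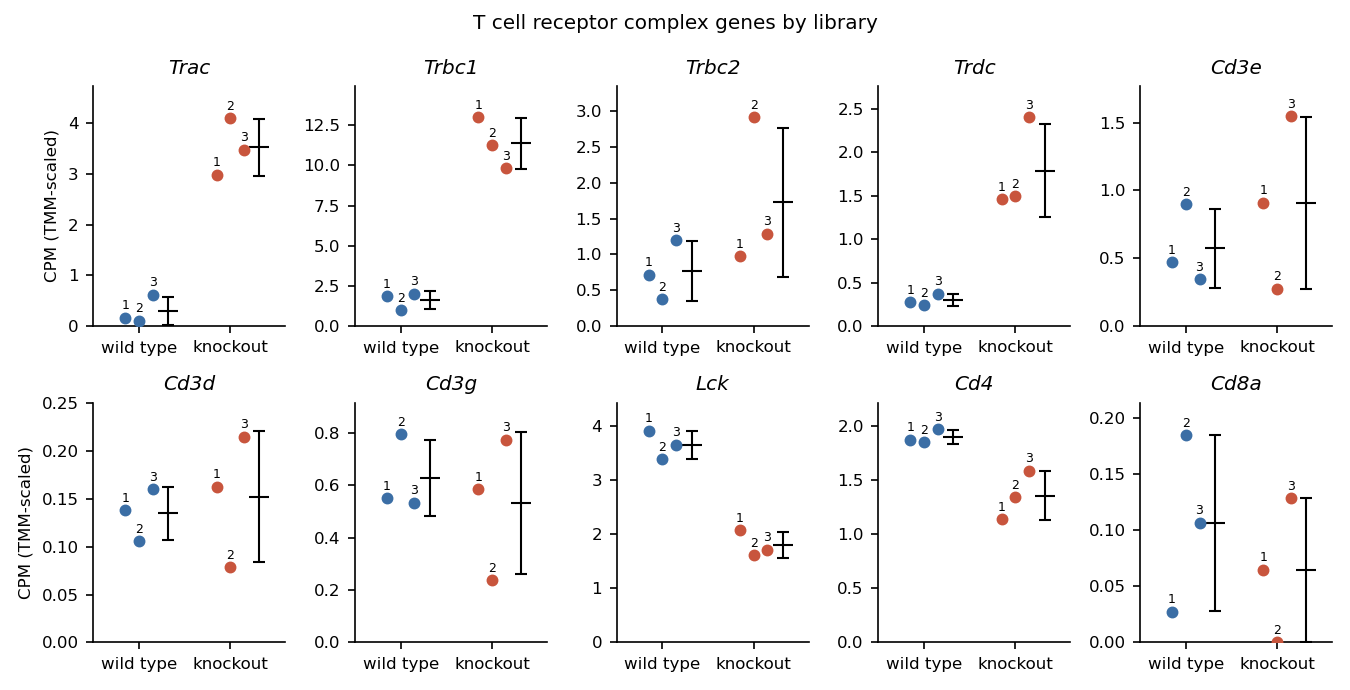
Level of each of the 10 genes in CPM (TMM-scaled, linear axes from 0) in the 3 wild-type and 3 knockout libraries; numbers beside the points are library numbers, and bars show the mean and SD of each group. Trac, Trbc1 and Trdc were higher in every knockout library, Lck and Cd4 lower in every knockout library, and the other 5 genes overlapped.

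Of the 10 genes, 8 passed the filter on low counts, which asked for 0.295 CPM in at least 3 libraries, and Cd3d and Cd8a did not. Trac and Trdc passed through the knockout libraries, since only 1 wild-type library of each reached the limit. In the fit over all genes, 3 of the 8 were past the threshold as higher (Trac, Trbc1 and Trdc) and 1 as lower (Lck). Over the 19900 genes tested, 17.6% were called higher and 18.4% lower at an adjusted p under 0.05, 36% in all. Without overlap of the CPM ranges, 3 of the 10 genes were higher and 2 lower in the knockout, against 24.5% and 26% of the genes tested. Since the genes were chosen with these values known, nothing is read from the counts. The median log2 fold change of all genes tested was 0.046.

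Trac, the only constant region of the alpha chain (chr14:54220521-54224206, plus strand), had 6, 4 and 23 counts in the wild-type and 92, 104 and 81 in the knockout libraries. The knockout libraries were close together, while wild-type library 3 held most of the wild-type counts. The mean level was 0.295 ± 0.278 CPM in the wild-type and 3.52 ± 0.558 CPM in the knockout libraries (SD, n = 3), a fitted log2 fold change of 3.56 (SE 0.52). Without wild-type library 3, that value was 4.64.

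Trbc1, the first of the beta constant regions in the order of the locus (chr6:41538218-41539881, plus strand), had 68, 37 and 75 counts in the wild-type and 400, 286 and 229 in the knockout libraries. It was the most abundant of the 10 genes in both groups per base of exon. Its level was 1.62 ± 0.557 CPM against 11.4 ± 1.58 CPM, a log2 fold change of 2.81 (SE 0.26). Trbc2, which lies 6849 bases further on (chr6:41546730-41548352, plus strand), had 26, 14 and 45 counts against 30, 74 and 30. In CPM the wild-type libraries stood at 0.717, 0.370 and 1.20 and the knockout libraries at 0.974, 2.92 and 1.29. Knockout library 2 was the highest and the other libraries overlapped, with a log2 fold change of 1.17 (SE 0.52). In the 4 libraries with under 40% of pairs unmapped, a set without knockout libraries 2 and 3, it was 0.29.

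Trbc1 made up more of the beta constant region counts in the knockout libraries. Trbc1 held 72.3%, 72.5% and 62.5% of the counts of both genes in the wild-type and 93.0%, 79.4% and 88.4% in the knockout libraries. The ranges did not overlap, although the 95% exact binomial interval of knockout library 2, 74.9% to 83.5%, reached into those of wild-type libraries 1 and 2, 62.2% to 81.1% and 58.3% to 84.1%. Summed by group, the share was 67.9% (61.9% to 73.5%) against 87.2% (85.1% to 89.2%). Pairs that the genes share were not counted, so these are shares of the pairs that tell the genes apart.

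Trdc, the constant region of the delta chain (chr14:54142851-54148868, plus strand), lies 71653 bases before Trac within the same locus. It had 10, 9 and 14 counts in the wild-type and 45, 38 and 56 in the knockout libraries. Every knockout library was above every wild-type library, at 1.79 ± 0.535 against 0.296 ± 0.070 CPM, a log2 fold change of 2.58 (SE 0.36), with 2.23 in the 4 libraries with under 40% of pairs unmapped. Exons of other genes cover 7.84% of its exonic bases. Of the counts on Trdc and Trac together, Trdc held 62.5%, 69.2% and 37.8% in the wild-type and 32.8%, 26.8% and 40.9% in the knockout libraries, so these shares overlapped.

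The partner of the delta chain did not stand apart. The gamma constant regions Tcrg-C1, Tcrg-C2, Tcrg-C3 and Tcrg-C4 summed to 7, 12 and 15 counts in the wild-type and 23, 4 and 8 in the knockout libraries, 34 against 35 in all. Tcrg-C3 had no count in any library, and Tcrg-C4 held most of the rest, with 6, 9 and 10 against 16, 1 and 6 counts. At these counts no difference was detectable.

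The V segments carried few of the receptor counts at the beta locus. Over its 22 functional V segments, which together span 8627 exonic bases, the libraries held 1, 7 and 5 counts in the wild type and 7, 1 and 4 in the knockout. Trbc1 and Trbc2 had 94, 51 and 120 counts in the same wild-type libraries, against 430, 360 and 259 in the knockout. V segments thus made up 13 of 278 beta V and C counts in the wild type, 4.68% (95% exact interval 2.51% to 7.86%), and 12 of 1061 in the knockout, 1.13% (0.586% to 1.97%). These intervals pool the libraries of a group and leave out the spread between them. Library by library the shares overlapped, since wild-type library 1, at 1.05%, lay below knockout library 3, at 1.52%. No difference between the groups is read from them. A pair that overlaps exons of both a V and a C gene is ambiguous in this kind of counting and is left out, as is a pair that cannot be aligned across a joined segment, and how many such pairs there were is not known. As a comparison chosen after the values were seen, the kappa light chain of antibodies was counted in the same way over 100 V segments, which span 36674 exonic bases and so offer more sequence than the beta V segments. Its V segments had 32, 42 and 61 counts beside 12, 8 and 51 of the constant region Igkc in the wild-type and 112, 48 and 130 beside 12, 133 and 77 in the knockout libraries. V counts exceeded C counts in every library except knockout 2. The kappa V counts were highest in knockout libraries 3 and 1, which had the most pairs outside exons, 18.9% and 14.2%. The part of such pairs in the V counts was not tested. The kappa locus is thus no measure of how well joined V segments are counted.

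**Figure D2:**
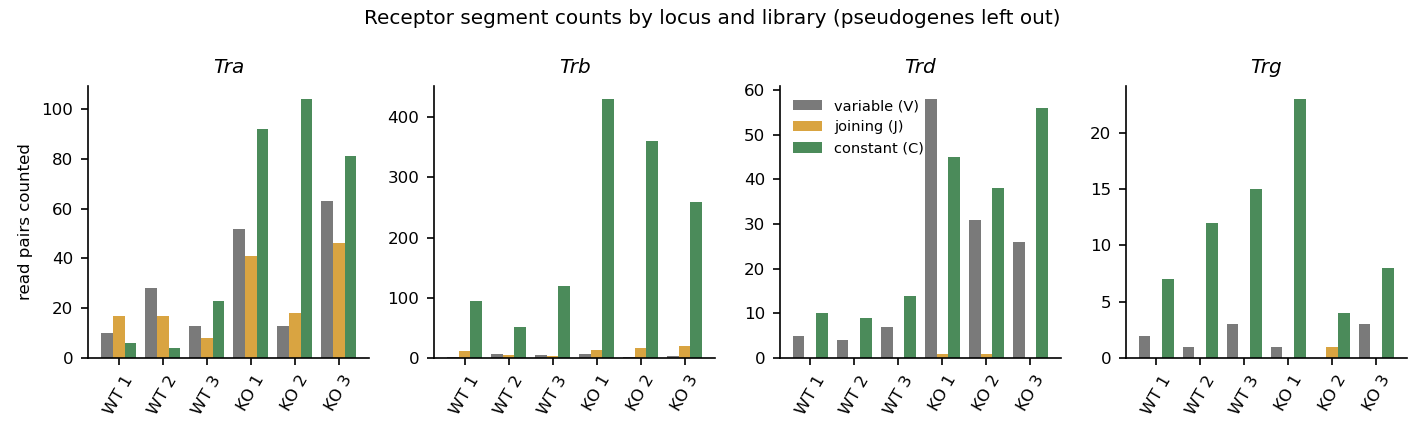
Read pairs counted on functional V, J and C segments of the alpha (Tra), beta (Trb), delta (Trd) and gamma (Trg) loci in each library, on linear axes that differ between panels. At Trb the constant regions reached 430 counts while V segments stayed at 7 or below, and at Trd V and C counts were both higher in the knockout libraries.

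Among joining segments of the beta chain, Trbj1-6 was the exception. It had no count in any of the 3 wild-type libraries but 9, 12 and 16 in the knockout libraries, at least 5.86-fold higher in mean CPM against the highest wild-type floor, which is 3 counts per library. Its sequence is printed above, and it ends 2612 bases before Trbc1 begins. All 13 functional J segments of the beta locus summed to 20 counts in the wild-type and 49 in the knockout libraries, so Trbj1-6 held 37 of the latter. It has 53 bases, and its selection came after its values were seen.

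At the alpha and delta locus the pattern differed. Of the 5 functional delta V segments, Trdv4 (chr14:54074905-54075515, plus strand) had 4, 1 and 3 counts in the wild-type and 54, 30 and 21 in the knockout libraries. It held 8 of the 16 delta V counts in the wild type and 105 of the 115 in the knockout, with no overlap between the groups, a ratio of 18.4 after scaling (95% exact counting interval 9.02 to 43.8). The 108 functional alpha V segments summed to 10, 28 and 13 counts in the wild-type and 52, 13 and 63 in the knockout libraries, which overlapped. The 51 functional alpha J segments had 17, 17 and 8 against 41, 18 and 46 counts.

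Single alpha segments were thinly covered. Of the V segments with at least 10 counts over the 6 libraries, Trav13-2 was the only functional alpha V segment without overlap, at 0, 3 and 2 counts in the wild-type and 8, 6 and 10 in the knockout libraries. Trav6d-5 had 2, 7 and 0 against 8, 0 and 9 counts, Trav7-6 had 1, 2 and 0 against 1, 1 and 9, and Trav9-1 had 0, 1 and 2 against 6, 1 and 5. Trav6n-5 and Trav7n-6, with 14 and 13 counts in all, overlapped as well. The V pseudogenes Trav4-1, with 15 counts, and Trbv22, with 12, also overlapped between the groups. Of the functional alpha J segments with as many counts, all named after their values were seen, Traj32 had 1, 0 and 1 against 4, 7 and 4 counts, Traj18 had 3, 3 and 1 against 8, 4 and 9, and Traj27 had 3, 2 and 0 against 4, 3 and 3, with no overlap in CPM. Traj57, with 0, 5 and 3 against 9, 0 and 12, and Traj49, with 2, 3 and 1 against 6, 1 and 2, overlapped.

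The CD3 genes form a cluster on chromosome 9 in which Cd3g and Cd3d start 1355 bases apart on opposite strands and Cd3e lies beyond Cd3d. Cd3e (chr9:44998740-45009627, minus strand), the epsilon chain that pairs with both of the others, had 17, 34 and 13 counts in the wild-type and 28, 7 and 36 in the knockout libraries. In CPM this was 0.469, 0.899 and 0.347 against 0.909, 0.276 and 1.55. Knockout library 2 was the lowest of the 6 and knockout library 3 the highest, so the groups overlapped, and the log2 fold change was 0.66 (SE 0.60).

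Cd3g (chr9:44969572-44980431, minus strand), the gamma chain of CD3, had 20, 30 and 20 counts against 18, 6 and 18, which is 0.626 ± 0.145 CPM in the wild-type and 0.531 ± 0.272 CPM in the knockout libraries. Its log2 fold change of -0.24 (SE 0.46) changed sign to 0.056 without knockout library 2. Cd3d (chr9:44981786-44987339, plus strand), the delta chain of CD3, had 5, 4 and 6 counts against 5, 2 and 5. Its ratio between the groups was 1.12 (95% exact counting interval 0.480 to 2.57). For the sum of the CD3 genes, the log2 ratio of the group means was 0.26, and it was -0.26 without knockout library 3.

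Among the CD3 genes, Cd3e ran nearly in the order of the share of pairs outside exons. By that share the libraries ran from knockout 3 and knockout 1 through wild type 2, wild type 1 and knockout 2 to wild type 3. By the level of Cd3e they ran in the same order except that knockout 2 and wild type 3, the last in the list, changed places. The other CD3 genes kept less of it, since Cd3g was highest in wild type 2, at 0.793 CPM against 0.773 in knockout 3 and 0.584 in knockout 1, and the CD3 sum was 1.80 CPM in wild type 2 against 1.66 in knockout 1. The alpha V segments had the same 3 libraries at the top in the same order, with 0.276, 0.740 and 0.347 CPM in the wild-type and 1.69, 0.513 and 2.71 CPM in the knockout libraries.

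Olfactory receptor genes, a family of odour sensors used mainly in the nose, were summed as a further comparison chosen after the values were seen. Over 1135 such genes, the sums were 67.2, 84.1 and 62.4 CPM in the wild-type and 126, 35.6 and 162 CPM in the knockout libraries. Cd3e per kilobase of exon, 0.0676 to 0.379 CPM over the libraries, lay in each library above the 95th percentile of single olfactory receptor genes, which ran from 0.0411 to 0.162 CPM per kilobase, and so did Cd3g. Cd3d lay below it in wild type 2 (0.0583 against 0.0680), knockout 1 (0.0895 against 0.121) and knockout 3 (0.118 against 0.162). The constant regions did not follow this order, since knockout library 2, with 19.8 CPM and 9.91% of pairs outside exons, held the highest sum. The part that pairs outside exons play in the CD3 values was not tested.

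**Figure D3:**
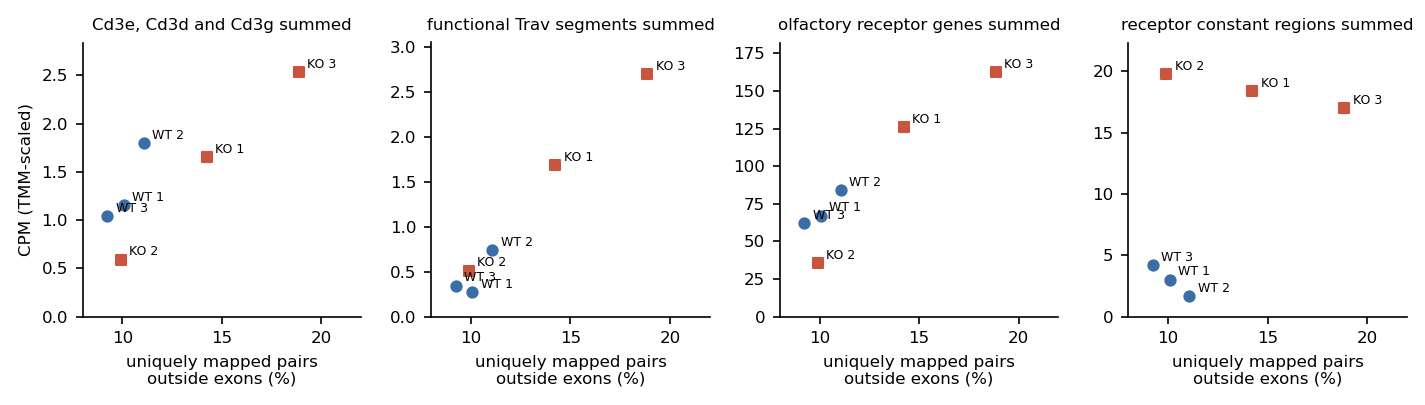
Level in CPM (linear axes from 0) of the CD3 genes, the alpha V segments, the olfactory receptor genes and the receptor constant regions, each summed, against the percentage of uniquely mapped read pairs outside annotated exons, with 1 point per library (circles wild type, squares knockout). Knockout library 3, at 18.9%, was highest in the first 3 panels, and knockout library 2, at 9.91%, was lowest in the CD3 and olfactory panels and highest for the constant regions.

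The libraries held unequal numbers of constant region counts for each CD3 count. The ratio was 2.62, 0.941 and 4.03 in the wild-type and 11.1, 33.5 and 6.71 in the knockout libraries. Every knockout library was above every wild-type library, and knockout library 2, with 15 CD3 counts, was the highest.

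Lck (chr4:129548344-129573641, minus strand) had 142, 128 and 137 counts in the wild-type and 64, 41 and 40 in the knockout libraries. Its level was 3.65 ± 0.265 CPM against 1.80 ± 0.243 CPM, a log2 fold change of -1.01 (SE 0.20). Every knockout library was below every wild-type library, and the wild-type level was 2.0 times the knockout level (95% exact counting interval 1.65 to 2.43). NK cells also use Lck, which is not restricted to T cells.

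Cd4 (chr6:124864692-124888221, minus strand), the co-receptor for MHC class II, had 68, 70 and 74 counts against 35, 34 and 37. At 1.90 ± 0.0656 against 1.36 ± 0.227 CPM the groups did not overlap, and the log2 fold change was -0.49 (SE 0.23), or -0.80 in the 4 libraries with under 40% of pairs unmapped. Cd8a (chr6:71373427-71379173, plus strand), a chain of the co-receptor for MHC class I, was near the limit of detection with 1, 7 and 4 counts against 2, 0 and 3. Its partner chain gene Cd8b1 had 7, 11 and 5 counts against 0, 0 and 3. Both were too low for the test.

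Set per kilobase of exon, the order of the genes was not the same in the groups. In the wild-type libraries the mean levels ran from Trbc1, at 2.16 CPM per kilobase, through Lck at 1.25, Trbc2 at 1.10, Cd4 at 0.471, Trac at 0.315, Cd3g at 0.191, Cd3e at 0.140, Trdc at 0.0765 and Cd3d at 0.0741 to Cd8a at 0.0293. Among neighbours in this order, Trbc2 and Cd4 did not overlap, nor did Cd3d and Cd8a, and all other neighbours did. In the knockout libraries it ran from Trbc1 at 15.2 through Trac at 3.77, Trbc2 at 2.50, Lck at 0.616, Trdc at 0.463, Cd4 at 0.336, Cd3e at 0.223, Cd3g at 0.163 and Cd3d at 0.0837 to Cd8a at 0.0178. There the steps from Trbc1 to Trac, from Trbc2 to Lck and from Cd3d to Cd8a were free of overlap. Trac and Trdc each moved up by 3 ranks and no constant region moved down.

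The nearest genes around the loci with at least 100 counts, a choice made after the values were seen, were compared in the same fit. Beyond the beta constant regions, Ephb6, a receptor of the ephrin family, had a log2 fold change of -0.050 (edgeR adjusted p = 0.807) and Trpv6, a calcium channel, 0.69 (adjusted p = 0.245). Beyond Trac, Dad1, a subunit of the oligosaccharyltransferase, was higher by 0.47 (adjusted p = 0.0036), and Abhd4, a lipase, stood at 0.14 (adjusted p = 0.53). On the far sides of these loci, Mgam and Clec5a before the beta locus stood at 1.00 (adjusted p = 0.0574) and -1.55 (adjusted p = 0.00026), and Mettl3 and Sall2 before the alpha and delta locus at 0.49 (adjusted p = 0.0324) and 0.67 (adjusted p = 0.0356). None of these 8 genes was as far above the wild type as Trbc1 or Trac. Around the CD3 cluster, Ube4a and Atp5l were lower, at -0.54 and -0.62 (adjusted p = 0.00334 and 0.00352), and Mpzl2 and Mpzl3 higher, at 2.03 and 0.77 (adjusted p = 0.000228 and 0.00165).

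Of the genes whose products act with the receptor, a list of 26 signalling genes that left out Lck, 22 were tested, of which 2 were higher and 7 lower in the knockout tumors. Over all genes tested, 17.6% were called higher and 18.4% lower, with a median log2 fold change of 0.046. The median of the 22 signalling genes was -0.46. Among the lower genes were Lcp2 and Vav1, an adaptor and an exchange factor that act downstream of ZAP-70, the phosphatase genes Ptprc (CD45) and Ptpn22, the Ras activator gene Rasgrp1, and Ctla4, an inhibitory receptor. Ptprc fell from 83.5 ± 2.20 to 39.2 ± 4.94 CPM (log2 fold change -1.09, SE 0.11, edgeR adjusted p = 0.000145), Vav1 from 30.0 ± 0.419 to 15.5 ± 1.35 CPM (-0.95, SE 0.10, adjusted p = 0.000265), and Lcp2 from 26.3 ± 2.15 to 15.6 ± 1.90 CPM (-0.76, SE 0.13, adjusted p = 0.00234). Those 3 genes are expressed by most leukocytes, T cells or not. Without wild-type library 1 or 2, the number of lower genes was 4.

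The higher genes of that list were Txk and Grap2. Txk, a kinase that NK cells also express, rose from 1.87 ± 0.655 to 4.01 ± 0.275 CPM (by 1.10 on the log2 scale, SE 0.28, edgeR adjusted p = 0.0153), and missed the threshold without knockout library 3 (adjusted p = 0.0537). Without that library neither gene was called higher, and 1 was without wild-type library 1 or 2 and in the 4 libraries with under 40% of pairs unmapped. The relays closest to the receptor were scarce. Zap70, the kinase recruited to phosphorylated CD3, had 18, 25 and 31 counts against 8, 14 and 16 (adjusted p = 0.476). Lat, the adaptor that ZAP-70 phosphorylates, had 18, 22 and 32 counts against 9, 9 and 7 (adjusted p = 0.0751; 0.0497 with a stricter filter on low counts). Cd247, the zeta chain, had 6, 16 and 16 counts against 6, 8 and 5 (adjusted p = 0.489), and exons of other genes cover 60.3% of its exonic bases, so its counts are uncertain; in the sum of the stranded columns its adjusted p was 0.00841.

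Markers of T cell identity were mixed. Of 26 such genes, 18 were tested, with 6 higher and 2 lower, beside 17.6% and 18.4% of all genes tested. The median log2 fold change of the 18 was 0.24. The higher ones were Thy1, Bcl11b, Ly6c2, Satb1, Cxcr6 and Cxcr3, and the lower ones were Ccr7 and Cd96. Ly6c2, which monocytes also carry, rose from 1.38 ± 0.434 to 13.5 ± 0.730 CPM (by 3.28 on the log2 scale, SE 0.22, edgeR adjusted p = 2.05e-05). Thy1, which fibroblasts also carry, rose from 81.5 ± 10.2 to 170 ± 42.1 CPM (1.06, SE 0.17, adjusted p = 0.00219), and at this level it stood far above any gene of the receptor complex. Bcl11b, a transcription factor of T cell commitment that some epithelia also use, rose from 1.15 ± 0.207 to 3.60 ± 1.02 CPM (1.63, SE 0.28, adjusted p = 0.00259). Cxcr3, a chemokine receptor of activated T cells and of other cells, rose from 3.57 ± 0.779 to 12.1 ± 2.20 CPM (1.76, SE 0.21, adjusted p = 0.0004). No gene of this list was called lower without wild-type library 1, wild-type library 2 or knockout library 3, and 1 was without wild-type library 3.

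Among T cell markers, 5 that were picked after their values were seen were near the limit of detection in both groups. Cd2, an adhesion receptor, had 31 counts over the wild-type libraries and 22 over the knockout libraries. Cd5 had 28 and 18, and Cd6 had 20 and 26. Foxp3, the factor of regulatory T cells, had 21 and 16, and Cd40lg, the helper T cell ligand, had 2 and 0. None of these 5 passed the filter on low counts. Other surface markers of the T cell identity list, among them Thy1, Cd96 and Ccr7, did.

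Genes of gamma delta T cells and of thymic development gave few values. Of 12 gamma delta genes, 5 were tested, with 1 higher and 1 lower, beside 17.6% and 18.4% of all genes tested. Nothing is read from counts this small, and the median log2 fold change of the 5 was 0.60. Zbtb16, a factor of innate-like T cells, rose from 0.422 ± 0.0494 to 2.66 ± 1.64 CPM (by 2.64 on the log2 scale, edgeR adjusted p = 0.00489), with 17, 14 and 16 counts against 30, 108 and 64, and it missed the threshold in the 4 libraries with under 40% of pairs unmapped (adjusted p = 0.0508). Maf, which macrophages also express, fell from 114 ± 9.51 to 42.8 ± 8.65 CPM (adjusted p = 0.000175). Sox13, a transcription factor of these cells, did not pass (0.60, adjusted p = 0.166).

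Of 10 genes of thymic development, 4 were tested, with 1 higher and 1 lower, beside 17.6% and 18.4% of all genes tested. Nothing is read from counts this small, and the median log2 fold change of the 4 was 0.38. Foxn1, the gene whose loss leaves nude mice without a thymus, and which skin epithelium also uses, had 15, 24 and 16 counts against 34, 28 and 40 (log2 fold change 1.40, SE 0.35, edgeR adjusted p = 0.0144). It missed the threshold without wild-type library 1 (adjusted p = 0.0731), without wild-type library 3 (0.0734) and in the 4 libraries with under 40% of pairs unmapped (0.0582). Cd1d1, which presents lipids to natural killer T cells, fell from 12.5 ± 0.698 to 7.17 ± 1.40 CPM (adjusted p = 0.00631). Arpp21, a gene of early thymocytes and of neurons, did not pass (1.04, adjusted p = 0.235; 0.0267 without knockout library 2 and 0.0461 with no filter on low counts). Rag1, a subunit of the enzyme that joins receptor segments, had 1, 2 and 2 counts against 4, 3 and 3, and Rag2 had 2 and 3 counts by group.

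Lck and Cd4 were set beside genes of other leukocytes. Of 20 NK cell genes, 14 were tested, with 11 lower and 1 higher, beside 18.4% and 17.6% of all genes tested. The median log2 fold change of the 14 was -2.73. The summed level of the list was 52.3 to 68.0 CPM in the wild-type and 17.0 to 18.1 CPM in the knockout libraries. Eomes, a transcription factor of NK cells, fell from 3.28 ± 0.426 to 0.276 ± 0.0715 CPM (edgeR adjusted p = 4.93e-05), Klrd1, the CD94 receptor, from 1.51 ± 0.207 to 0.171 ± 0.0506 CPM (adjusted p = 0.000355), and granzyme B (Gzmb) from 11.5 ± 2.28 to 0.321 ± 0.218 CPM (adjusted p = 2.86e-05). Klra8, a receptor of the same cells, had no count in any library. Of 12 genes shared by most leukocytes, all were tested and 10 were lower, with a median log2 fold change of -1.01 and summed levels of 1152 to 1198 against 558 to 654 CPM. Lck, at -1.01, lay at that median, while Cd4, at -0.49 (SE 0.23), lay above it. The part of these cells in the values of Lck and Cd4 was not tested.

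Macrophage genes were lower in all 14 of 14 tested. Over all genes tested, 17.6% were called higher and 18.4% lower. The macrophage genes had a median of -1.57 and summed levels of 5734 to 6655 against 1043 to 1280 CPM. Of 12 genes of innate lymphoid cells, 10 were tested, with 4 lower, 1 higher and a median of -0.24, and summed levels of 531 to 797 against 233 to 246 CPM. Arg1, which macrophages also express, held the largest part of that sum, and without it the levels were 270.2 to 293 against 185 to 200 CPM. Areg, Gata3 and Id2 held most of the rest, with means of 91.4, 87.7 and 66.4 CPM in the wild-type and 47.0, 76.3 and 25.8 CPM in the knockout libraries. Which cells held these transcripts was not tested, so the sum is no measure of innate lymphoid cells. Klrg1, an inhibitory receptor of NK and innate lymphoid cells, had 54, 50 and 54 counts against 0, 0 and 1. Of 14 dendritic cell genes, all tested, 5 were higher and 1 lower, with a median of 0.41.

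B cell genes were mixed and tumor epithelial genes mostly higher. Of 15 B and plasma cell genes, 8 were tested, with 4 higher and 2 lower, beside 17.6% and 18.4% of all genes tested. The median log2 fold change of the 8 was 1.19. The call of Ighm as higher (adjusted p = 0.0354) was lost without wild-type library 1 or 2, without knockout library 2 or 3, and in the 4 libraries with under 40% of pairs unmapped (adjusted p = 0.136, 0.126, 0.0821, 0.107 and 0.665). The summed level of that list was 18.6 to 22.4 CPM in the wild-type and 23.2 to 42.4 CPM in the knockout libraries. Ebf1 made up much of that sum, and without it the levels overlapped, at 12.8 to 15.8 against 8.60 to 20.7 CPM. Ebf1, a B cell factor that stromal cells also use, rose from 6.06 ± 0.416 to 16.6 ± 4.43 CPM (edgeR adjusted p = 0.000703), while Cd22, a B cell lectin, and Blnk, a B cell adaptor, fell from 3.25 ± 0.287 to 1.31 ± 0.292 CPM (adjusted p = 0.00344) and from 5.84 ± 0.226 to 2.66 ± 0.866 CPM (adjusted p = 0.00693). Of 6 epithelial genes 5 were higher, with a median of 2.48 and summed levels of 2809 to 2927 against 5449 to 5820 CPM. The part of either cell type in the constant region values was not tested.

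**Figure D4:**
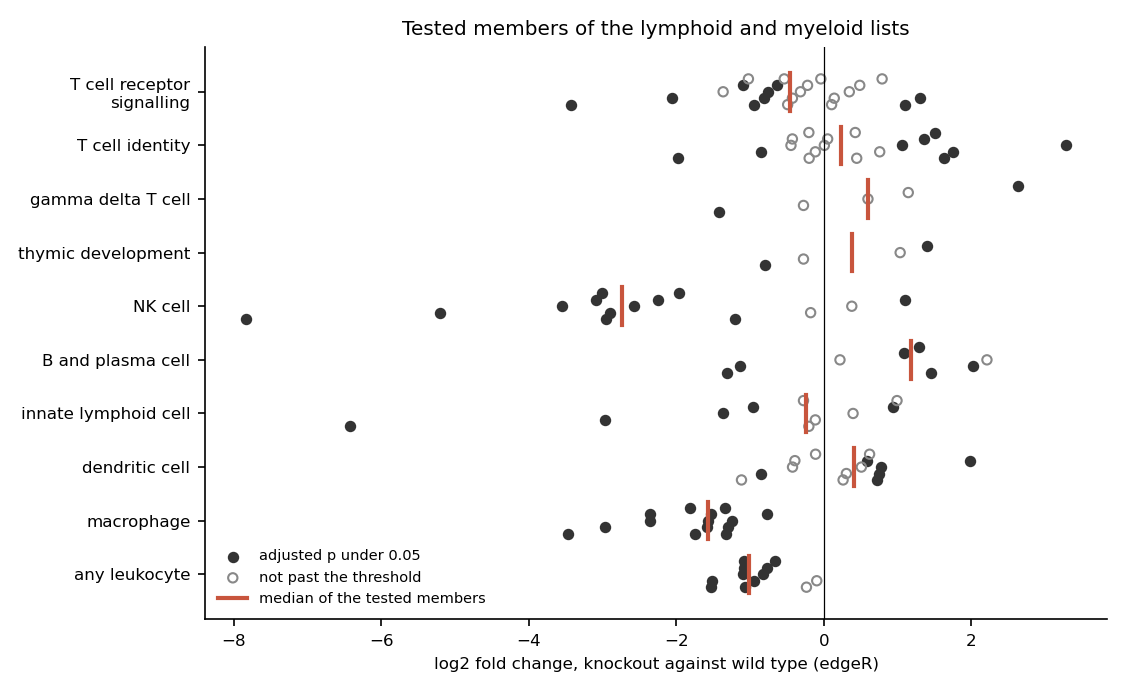
Log2 fold change, knockout against wild type, of each tested gene in 10 lists, from the edgeR fit over all genes; filled points were past an adjusted p of 0.05, open points were not, and red bars show the median of each list. NK cell, macrophage and general leukocyte genes lay mainly below 0, while T cell identity genes were spread on both sides of it.

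Among 13018 protein-coding genes with a mean of at least 1 CPM, the 5 whose levels followed the summed CD3 genes most closely over the 6 libraries were Thsd7a (Pearson r = 0.991), Krtap7-1 (0.984), Sgip1 (0.980), Npas3 (0.979) and Kpna1 (0.978). The points share the libraries' depth and their pairs outside exons. None of the 5 passed the threshold between the groups. Krtap7-1, a hair keratin associated protein gene, had 20, 58 and 13 counts in the wild-type and 35, 4 and 73 in the knockout libraries, so knockout library 3 was the highest and knockout library 2 the lowest, as for the CD3 genes. No gene that is known for T cells was among the 5.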

How the data were processed

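RNA was sequenced as paired-end libraries, 3 per group, grouped by their titles. The authors deposited whole-number read-pair counts per gene, not normalized; STAR 2.6.0c, FastQC, DESeq2 and GRCm38 are named in the submitters' processing notes. In tables of this layout, multimapping and ambiguous pairs are left out. The unstranded column was used; 54079 of 54146 gene rows matched GENCODE M21, the source of symbols, coordinates and sequences.

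The test was the quasi-likelihood F test of edgeR 4.0.16 (R 4.3.3) after filterByExpr and TMM scaling, with Benjamini-Hochberg adjustment over 19900 genes and a threshold of 0.05. SE values come from the fold change and its F statistic (size of the log2 value over the root of F). Ratios of summed counts scaled by library size have 95% exact conditional binomial intervals. Alternatives were DESeq2 1.42.0, RLE factors, library totals, other filters, the sum of the stranded columns, a robust fit, left-out libraries, libraries under 40% unmapped and the replicate block.

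The 10 genes and all lists were chosen with earlier results of these data known. Besides the 10 genes, those named were up to 4 per list with the smallest p and a mean of at least 0.5 CPM, V segments with at least 10 counts, the 5 genes most like CD3 (log2 of CPM plus 0.1), and the genes Cd247, Zap70, Lat, Ptprc, Foxn1, Rag1, Tcrg-C1 to Tcrg-C4 and Mki67. Ptpn22, Rasgrp1, Ctla4, Grap2, Satb1, Cxcr6, Ccr7, Cd96, Cd2, Cd5, Cd6, Foxp3, Cd40lg, Cd8b1, Rag2, Igkc, Klra8, Gata3, Trbj1-6 and the alpha J segments were named after their values were seen. Some genes of the lists are not reported here.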

Additional observations from a re-analysis of the deposited data

How the results depend on the processing

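Under 15 alternatives, Trac, Trbc1, Trbc2 and Trdc stayed higher and Lck and Cd4 lower, with log2 fold changes of 3.13 to 4.64, 2.52 to 2.97, 0.29 to 1.65, 2.23 to 2.75, -1.14 to -0.88 and -0.80 to -0.38. With single libraries left out, genes called higher numbered 1811 to 4648 (3506 with all) and lower 2225 to 4778 (3652), signalling genes lower 4 to 9 and higher 0 to 3, and identity genes lower 0 to 3 and higher 5 to 8. The log2 ratio was 2.32 to 2.94 for the summed constant regions, -0.26 to 0.61 for CD3, reversed without knockout library 3, and -0.87 to -0.80 for Lck, Cd4 and Cd8a. Cd3g ranged from -0.59 to 0.056 with single libraries left out and turned to 0.056 without knockout library 2. With no filter, Lck, Cd4 and Cd8a gave -0.90, as the scaling moved the fold change of the median gene by -0.083. In the libraries under 40% unmapped, signalling genes higher numbered 1. Ighm, Cd209a, Itgax and Batf3 also lost their calls under at least 1 alternative. The cause was not tested. Replicate numbers did not pair the libraries (correlations of same-numbered deviations 0.0529, -0.212 and -0.243); with the replicate block 3082 genes were higher and 3580 lower. Counts under about 10 a library limit Trac and Trdc in the wild type, Cd3d and Cd8a, where a count of 0 allows 3.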
